A study of Vitis vinifera with 8 samples.

Results

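The genes described here are 8 grapevine (Vitis vinifera) genes of sucrose cleavage and sugar transport, read on a 1-colour expression array as 8 of its 34369 probes, 1 probe per gene. They were taken by identifier and not by a threshold on their values, but earlier results of these data were known. The list held a sucrase (VIT_19s0015g00750), vacuolar invertases (VIT_16s0022g00670 and VIT_02s0154g00110), a cell wall invertase (VIT_09s0002g02320), hexose transporters (VIT_00s0181g00010 and VIT_05s0020g03140) and sucrose transporters (VIT_18s0001g08210 and VIT_18s0076g00220). All 8 probes were well above background on all 8 arrays, which held for 69.6% of all probes. The roles are those of this list. In the study's own tables VIT_19s0015g00750 is annotated as sucrase, VIT_16s0022g00670 as the vacuolar invertase GIN1, VIT_00s0181g00010 as Sugar transporter 1 and VIT_05s0020g03140 as Sugar transporter 13.

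Both groups were leaves of 6-week-old plants of cv Sultana, harvested 7 days after Agrobacterium tumefaciens strain C58C1 was introduced under vacuum. OXNAC33 plants received VviNAC33, a NAC family transcription factor gene, under the constitutive 35S promoter, and Control plants received the pK7WG2 vector with a non-coding sequence. Of 8 plants infiltrated for overexpression and 7 for control, 4 per group were hybridised, and OXNAC33 plants had been picked for a high transgene level in quantitative PCR. The comparison asked whether leaf transcripts for sugar cleavage and transport differ when VviNAC33 is supplied in excess. Expression from infiltrated leaves is transient, each value averages over all leaf cells, and fewer cells of a type and less RNA per cell cannot be told apart.

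Sucrose is the main form in which plants move carbon from source leaves to other organs. Sucrase and invertases split it irreversibly into glucose and fructose, inside the vacuole for vacuolar invertases and in the cell wall space for cell wall invertases. Sucrose transporters carry sucrose across membranes with protons and load the phloem in many leaves, and hexose transporters of the sugar transport protein family take up the glucose and fructose released outside the cell. In leaves these genes bear on whether a leaf exports or retains sugar, and in grape berries vacuolar invertases and hexose transporters are known for hexose accumulation.

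Levels are log2 intensities scaled to each array's 75th percentile, so that 0 means the intensity of that percentile, and differences are OXNAC33 minus Control on the same scale. The share of probes well above background ranged from 73.8% to 84.1% per array. It was 84.0% and 84.1% in Control replicates 1 and 2, but 77.0% and 76.5% in OXNAC33 replicates 1 and 2. Replicates 1 and 2 were scanned on date 1, replicate 3 on date 2 and replicate 4 on date 3, in each group. Control replicates 1 and 2 were on slide 1 and replicate 3 on slide 2. OXNAC33 replicates 1 and 2 were on slide 4 and replicate 3 on slide 5. Both replicate 4 arrays were on slide 3. On dates 1 and 2 a difference between groups and a difference between slides cannot be told apart. VviNAC33 itself (VIT_19s0027g00230) stood at 0.14, -0.75, -1.14 and -1.37 in Control replicates 1 to 4 and at 1.15, 0.59, -0.12 and -1.13 in OXNAC33. Its probe was higher in OXNAC33 on each scan date, but the arrays labelled OXNAC33 replicates 3 and 4 fell within the levels of Control. The log2 difference of 0.90 (SE 0.52) was not past an unadjusted p of 0.05 by limma, and a block for replicate number gave 0.00757 (adjusted p = 0.279). SGR1 (VIT_02s0025g04660), a chlorophyll degradation gene, read 2.79 and 2.67 on those arrays and at most 0.98 in Control. SGR1 is in the study's list from these same arrays, so its direction is not independent evidence. Its difference did not pass the adjustment (adjusted p = 0.392, limma). Directions given below include OXNAC33 replicates 3 and 4 unless a removal is stated. The 5 photosynthesis genes used as leaf markers were well above background on all 8 arrays and had lower means in OXNAC33, by 0.30 to 1.76. Of them 3 were at an unadjusted p under 0.05, where 3.82% of all probes were lower. None was at an adjusted p under 0.05 (lowest adjusted p = 0.633, limma). Of these 5 markers, 3 are in the study's list from these same arrays, so their direction is not independent evidence. Of 5 reproductive organ markers, SEEDSTICK and the seed maturation gene PM27 were not well above background on any array. The pollen gene Ole e I was well above background on all 8 arrays and both Embryo-specific 3 genes on 7, and their means were lower in OXNAC33, with differences from -2.24 to -0.81, a median of -1.48 and none at an unadjusted p under 0.05 (lowest adjusted p = 0.646, limma). The part of these shifts in the results below was not tested.

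None of the 8 genes passed limma at an adjusted p under 0.05, where 0.0% of 26579 probes did, and none passed at an unadjusted p under 0.05, where 7.79% did (3.97% higher and 3.82% lower). The adjusted p-values ran from 0.636 to 0.984. Of the 8 differences 6 were above 0 and 2 below, and their median was 0.11, beside 0.04 over all probes tested. The sucrase was the only member whose groups did not overlap, a pattern seen for 4.12% of all probes with 2.37% in the higher and 1.75% in the lower direction. The SE of the differences ranged from 0.14 for the sucrase to 0.62 for GIN1, beside a median of 0.26 over all probes.

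**Figure D1:**
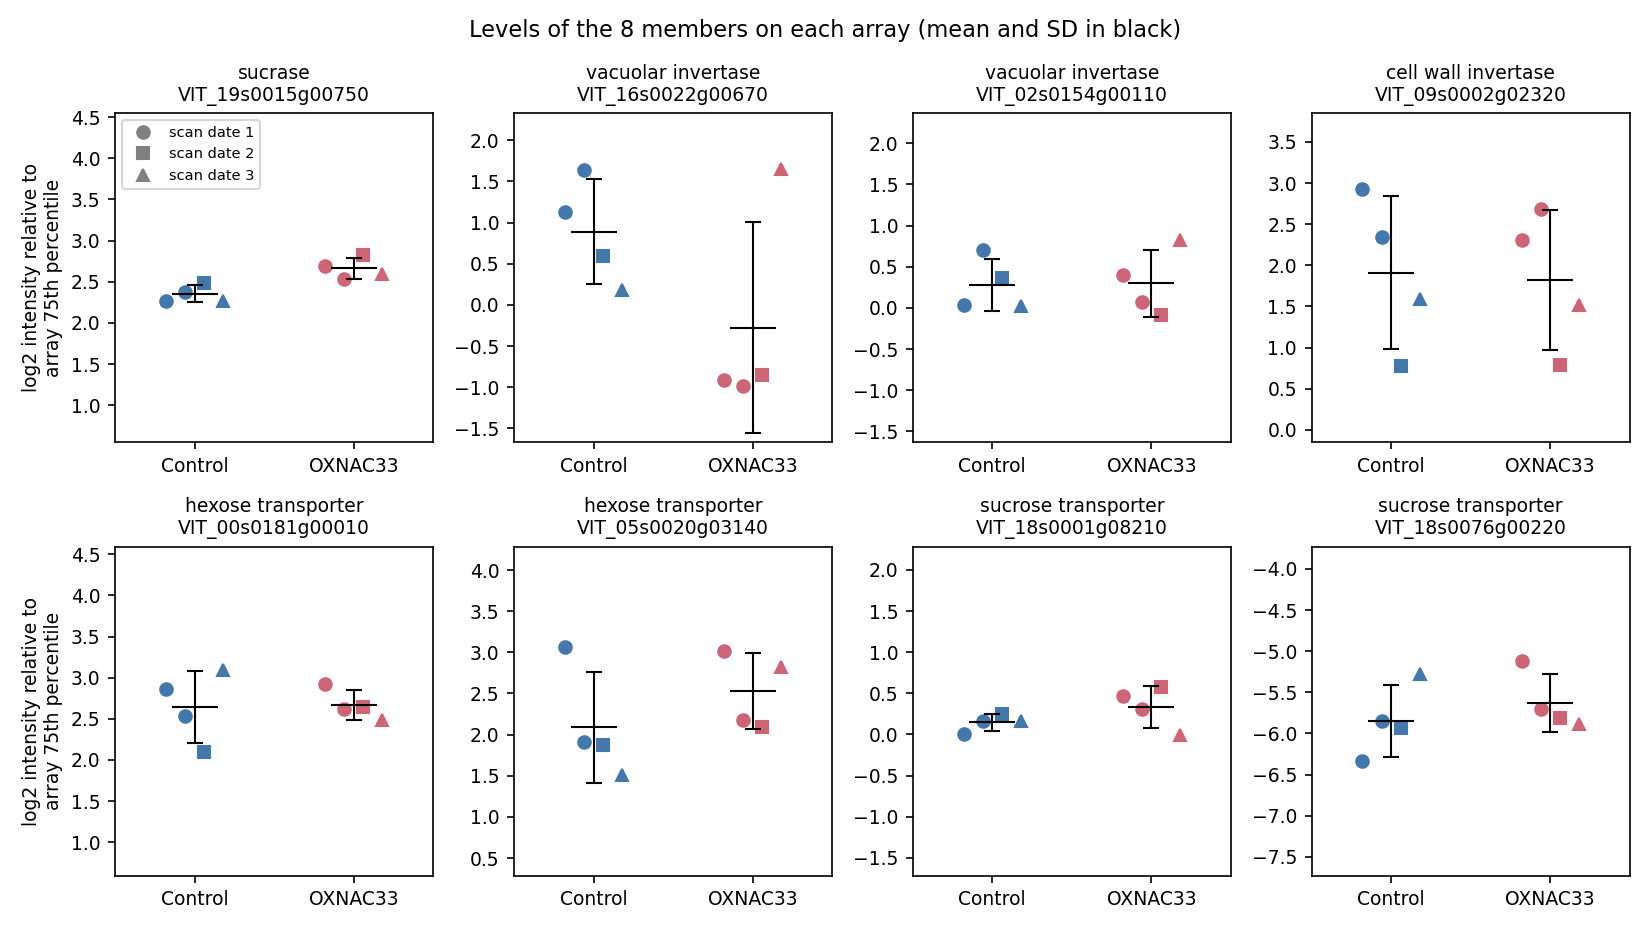
Log2 intensity of each gene, scaled to each array's 75th percentile, for 4 Control (blue) and 4 OXNAC33 (red) arrays, with the mean and SD in black and symbols for scan date. Each panel spans the same number of log2 units around its own level. The sucrase alone has separate groups, and GIN1 has 3 low OXNAC33 arrays and 1 at 1.65.

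The sucrase, which splits sucrose, had a level of 2.27, 2.38, 2.49 and 2.27 in Control replicates 1 to 4 and of 2.69, 2.54, 2.83 and 2.60 in OXNAC33. Every OXNAC33 array lay above every Control array. The means were 2.35 ± 0.10 in Control and 2.66 ± 0.13 in OXNAC33 (SD, n = 4). The log2 difference was 0.31 (SE 0.14, 95% interval -0.02 to 0.64), or 1.24-fold, and it did not pass limma (unadjusted p = 0.0603, adjusted p = 0.636). A two-sided exact permutation over the 8 arrays returned p = 0.0286, the smallest value it can give. The difference was nearly the same on each scan date, at 0.29, 0.34 and 0.33, and the exact permutation within scan dates gave p = 0.0833, again the smallest possible. Blocking on scan date gave an unadjusted limma p of 0.0355, and a random block for slide gave 0.0496, with adjusted p-values of 0.310 and 0.651. A block for replicate number gave 0.0705, against 0.102 with array weights and 0.186 with array median scaling, with adjusted p-values of 0.422, 0.238 and 0.748. The methods' t-test gave an unadjusted p of 0.00904, with an adjusted p of 0.650, and 7.58% of all probes passed its unadjusted threshold. The study lists this gene from these same arrays, so its direction here is not independent evidence. The paper also reports a sucrase gene as upregulated in stably overexpressing plants, which are not part of these arrays.

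GIN1 (VIT_16s0022g00670), which cleaves sucrose in the vacuole, had the largest difference of the 8 genes in size and the least even OXNAC33 arrays. Its level was 1.13, 1.64, 0.60 and 0.18 in Control replicates 1 to 4 and -0.92, -0.99, -0.85 and 1.65 in OXNAC33. OXNAC33 replicates 1 to 3 lay close together and below every Control array, whereas the array labelled OXNAC33 replicate 4 was level with the highest Control array. The means were 0.89 ± 0.64 in Control and -0.27 ± 1.29 in OXNAC33 (SD, n = 4). The log2 difference of -1.16 (SE 0.62, 95% interval -2.59 to 0.26), a level 0.447 times that of Control, did not pass limma (unadjusted p = 0.0972, adjusted p = 0.651), and the exact permutation test gave p = 0.171. Within scan dates the difference was -2.34 and -1.44 on dates 1 and 2 and 1.48 on date 3, so its sign turned on the date that held replicate 4. Without the array labelled OXNAC33 replicate 4 the difference was -1.81 (unadjusted p = 0.00103, adjusted p = 0.164). Scan date 3 was the only date whose arrays of both groups shared a slide, and a random block for slide took the difference to 0.01. Array weights took it to -1.88 (adjusted p = 0.0512, limma). The weights were 13 for OXNAC33 replicate 2 and 0.431 for OXNAC33 replicate 4, and 949 of all probes passed the adjusted threshold with them.

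The other gene taken as a vacuolar invertase, VIT_02s0154g00110, was not found in the study's tables used here, which give the name GIN2 to VIT_02s0154g00090 (log2 difference 0.21, SE 0.45, adjusted p = 0.906 by limma). VIT_02s0154g00110 had a level of 0.04, 0.70, 0.36 and 0.02 in Control and of 0.40, 0.07, -0.09 and 0.83 in OXNAC33, so that the groups overlapped throughout. The log2 difference was 0.02 (SE 0.25, 95% interval -0.56 to 0.60, adjusted p = 0.984 by limma). Its values within scan dates were -0.14, -0.45 and 0.81, with the array labelled OXNAC33 replicate 4 again the highest of the 8. The ratio of GIN1 to this gene within an array shows unequal change of the pair, and its log2 difference between the groups was -1.18. That log2 ratio was 0.61 ± 0.48 in Control and -0.58 ± 0.96 in OXNAC33 (SD, n = 4), it was 0.83 in the array labelled OXNAC33 replicate 4, and the exact permutation test did not separate the groups (p = 0.0857, Benjamini-Hochberg p = 0.257 over 3 pairs). The ratio differed by -2.20 within scan date 1 and by 0.67 within scan date 3.

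**Figure D2:**
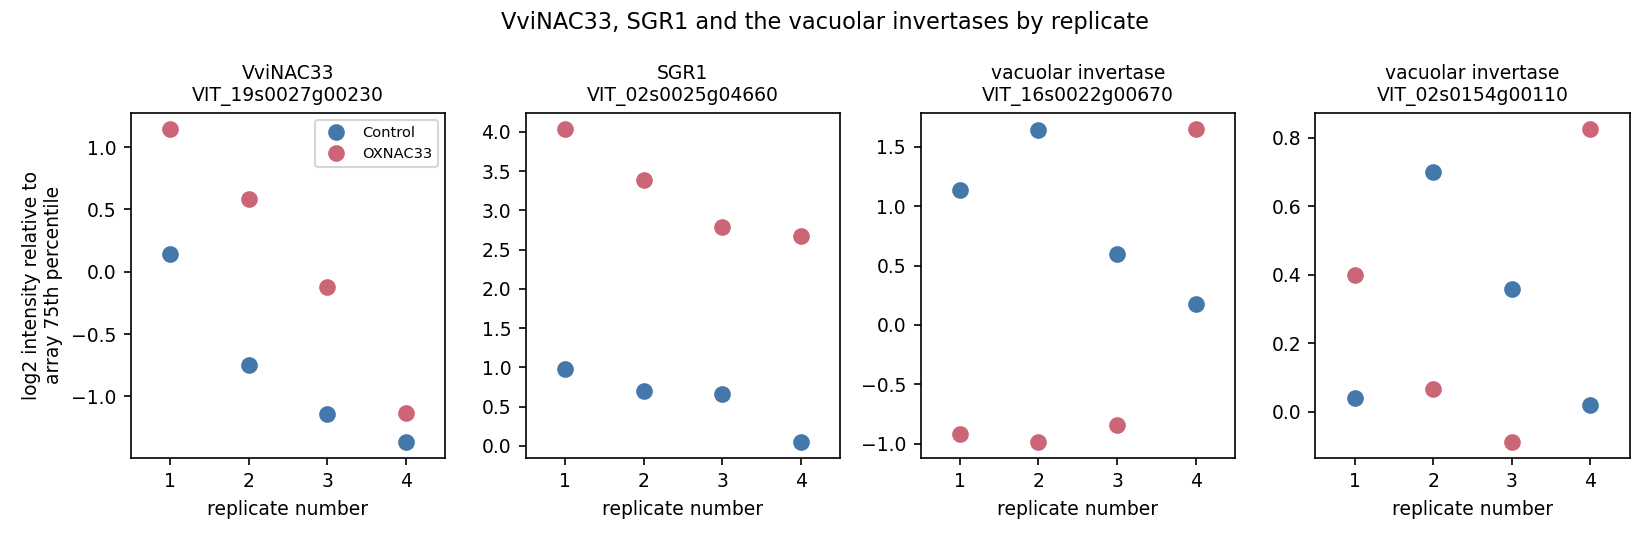
Log2 intensity scaled to each array's 75th percentile (vertical axes, each with its own range) for VviNAC33, SGR1 and both vacuolar invertases by replicate number, with Control in blue and OXNAC33 in red. SGR1 is higher in OXNAC33 for all 4 numbers, VviNAC33 differs least at number 4, and GIN1 is lower in OXNAC33 for numbers 1 to 3 and higher for number 4.

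The cell wall invertase VIT_09s0002g02320, which cleaves sucrose outside the cell, varied widely between arrays and little between the groups of 1 scan date. Its level was 2.93, 2.34, 0.78 and 1.60 in Control replicates 1 to 4 and 2.31, 2.68, 0.78 and 1.52 in OXNAC33. Arrays of scan date 1 were the highest and those of scan date 2 the lowest in both groups. The log2 difference between groups was -0.09 (SE 0.55, 95% interval -1.34 to 1.17, adjusted p = 0.972 by limma), and it was -0.14, 0.01 and -0.08 within the 3 dates. In a fit with scan date beside group, added after the values were seen, the level relative to date 1 was -1.78 on date 2 and -1.01 on date 3, with an adjusted p = 0.0291 over all probes (limma F test). Of all probes 7.61% passed that test (29.7% at an unadjusted p under 0.05), and of the 8 members this was the only one at either threshold. Scan date and replicate number are the same division of the arrays for replicates 3 and 4, so a difference between plants and a difference between dates cannot be told apart.

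**Figure D3:**
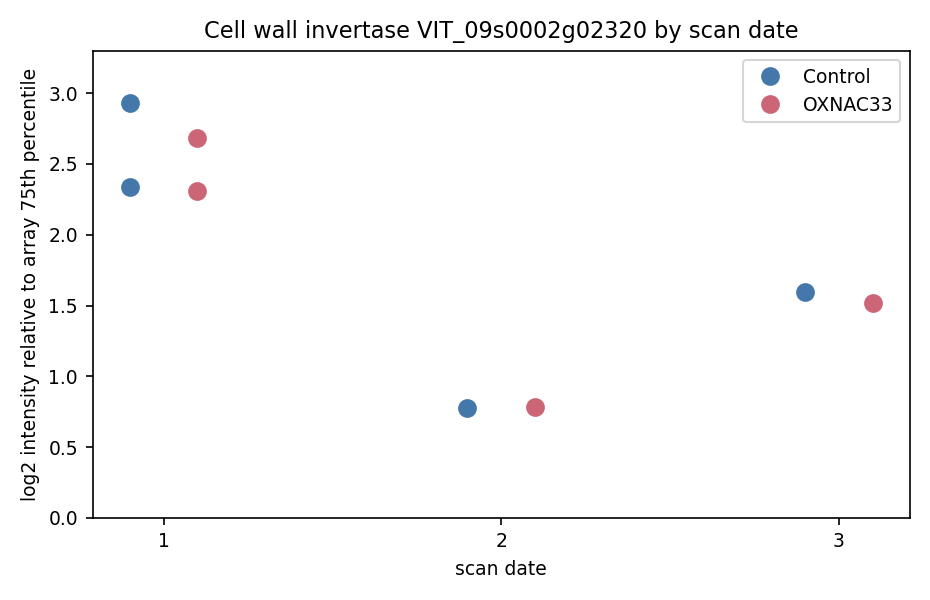
Log2 intensity of the cell wall invertase VIT_09s0002g02320, scaled to each array's 75th percentile, against scan date, with 1 point per array in Control (blue) and OXNAC33 (red). The levels on date 1 lie between 2.31 and 2.93, those on date 2 are both 0.78, and those on date 3 are 1.60 and 1.52.

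The hexose transporters did not differ between the groups beyond the spread of the arrays. VIT_05s0020g03140 had a level of 3.07, 1.91, 1.87 and 1.51 in Control and of 3.01, 2.17, 2.09 and 2.83 in OXNAC33. Replicate 1 was high in both groups, and the arrays of replicate 4 differed most. The log2 difference was 0.44 (SE 0.37, 95% interval -0.41 to 1.28), or 1.35-fold, with an adjusted p = 0.742 by limma and p = 0.286 by the exact permutation test. It was 0.11, 0.22 and 1.32 within scan dates. Without Control replicate 1 the difference was 0.76 (unadjusted p = 0.0294, adjusted p = 0.783). VIT_00s0181g00010 had a level of 2.87, 2.53, 2.09 and 3.10 in Control and of 2.92, 2.61, 2.65 and 2.48 in OXNAC33. Its Control arrays spanned the whole OXNAC33 range, and the log2 difference was 0.02 (SE 0.24, 95% interval -0.52 to 0.56, adjusted p = 0.984 by limma). The values within scan dates were 0.07, 0.56 and -0.62, and the sign of the pooled difference changed with the scaling of the arrays. The within-array ratio of VIT_05s0020g03140 to VIT_00s0181g00010 differed by 0.42 between the groups (exact permutation p = 0.457, Benjamini-Hochberg p = 0.686 over 3 pairs), and by 0.073 without Control replicate 4.

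The sucrose transporters carry sucrose itself rather than its products. VIT_18s0001g08210 had a level of 0.00, 0.16, 0.25 and 0.17 in Control and of 0.46, 0.31, 0.58 and -0.01 in OXNAC33. OXNAC33 replicates 1 to 3 were above every Control array and the array labelled OXNAC33 replicate 4 was level with the lowest Control array. The log2 difference was 0.19 (SE 0.17, 95% interval -0.20 to 0.58, adjusted p = 0.759 by limma), and it was 0.31, 0.33 and -0.18 within scan dates. VIT_18s0076g00220 was read close to the detection limit, at -6.34, -5.85, -5.94 and -5.28 in Control and -5.12, -5.70, -5.81 and -5.88 in OXNAC33. On each array it lay at least 0.90 log2 units above the lowest signal that was well above background there. Its groups overlapped, and the log2 difference of 0.22 (SE 0.27, 95% interval -0.39 to 0.84, adjusted p = 0.822 by limma) was 0.69, 0.13 and -0.60 within scan dates. Another background correction reduced this difference to 0.01. The within-array ratio of the pair differed by -0.03 between the groups (exact permutation p = 0.914, Benjamini-Hochberg p = 0.914 over 3 pairs).

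**Figure D4:**
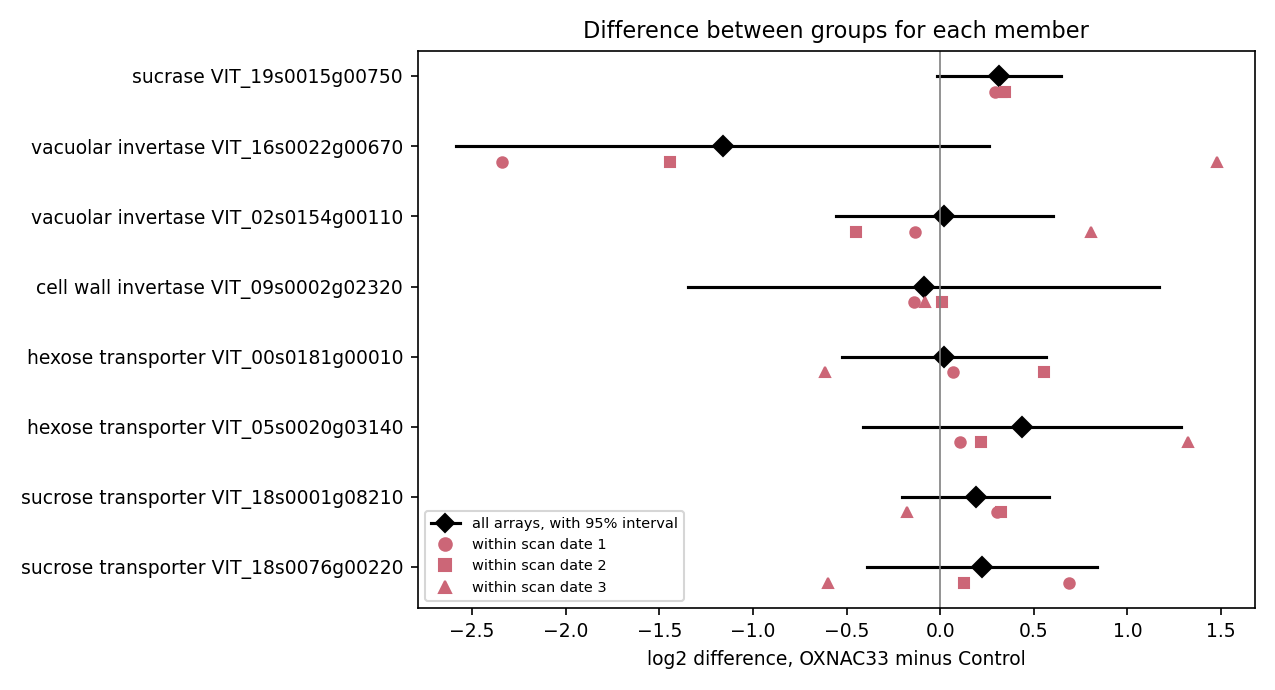
Log2 difference, OXNAC33 minus Control, of each gene with its 95% interval from limma (black diamonds and lines) and the differences within the 3 scan dates (red symbols). All 8 intervals include 0, and the sucrase has the narrowest interval and values of 0.29, 0.34 and 0.33 within dates.

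On scan date 3 the difference had the opposite sign to that on date 1 for 5 of the 8 genes, which were both vacuolar invertases, the hexose transporter VIT_00s0181g00010 and both sucrose transporters. The sucrase, the cell wall invertase and the hexose transporter VIT_05s0020g03140 kept their sign between those dates. Date 3 rests on 1 array per group and on the array labelled OXNAC33 replicate 4. The share of all probes with such a change of sign was not counted, so the count does not set these genes apart.

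Other genes of the same pathways were read from 3 lists drawn from the annotations in the study's tables, 34 genes in all, of which 31 were tested and 22 came from the study's list for stable lines. None of the 31 passed at an adjusted p under 0.05. At an unadjusted p under 0.05, 1 was higher and 0 were lower, beside 7.79% of all probes, and the median difference was 0.09. Of 8 tested genes of sucrose cleavage 2 had a difference above 0 and 6 below, with a median of -0.41 and none at an unadjusted p under 0.05. The 4 with the lowest p were the sucrose synthase VIT_07s0005g00750 (log2 difference 0.69, adjusted p = 0.646 by limma), an invertase or pectin methylesterase inhibitor VIT_11s0016g00590 (-1.31), the beta-fructofuranosidase VIT_03s0038g01480 (-0.43) and the sucrose synthase VIT_11s0016g00470 (-0.72). Without OXNAC33 replicate 3 the difference of VIT_11s0016g00470 was -0.079, and with 1 array left out that of VIT_03s0038g01480 ran from -0.68 to -0.19. Sucrose synthase splits sucrose reversibly, and invertase inhibitors are proteins that bind and block invertases. The 8 genes counted above include VIT_11s0016g00590 and a further inhibitor, VIT_00s0323g00050 (-0.39), so the count is not one of cleavage enzymes alone. VIT_11s0016g00590 read 1.57, 2.89, 0.60 and -0.09 in Control and 0.58, -0.46, -1.82 and 1.44 in OXNAC33. Like that of GIN1, its difference turned from -2.17 and -2.42 on dates 1 and 2 to 1.53 on date 3.

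Of 9 tested sugar transport genes 8 had a difference above 0 and 1 below, with a median of 0.18. The D-xylose-proton symporter-like gene VIT_16s0039g02170 was the 1 gene at an unadjusted p under 0.05, with a log2 difference of 0.42 (SE 0.18, unadjusted p = 0.0484, adjusted p = 0.633 by limma). It read 0.17, 0.10, 0.59 and 0.40 in Control and 0.87, 0.68, 0.92 and 0.46 in OXNAC33, so that the groups overlapped through the last array. The study lists it from these same arrays, and a block for replicate number gave an unadjusted p of 0.0526. STP12 (VIT_14s0083g00040) had a difference of -0.47, STP8 (VIT_13s0019g01480) of 0.34 and the ERD6-like transporter VIT_05s0020g02170 of 2.32 with an SE of 1.67, its arrays ranging from -5.59 to 2.24. The ERD6-like gene was higher in OXNAC33 within each scan date, by 2.46, 0.61 and 3.77, and its unadjusted limma p of 0.199 became 0.00829 with scan date as a block and 0.0143 with the replicate number as a block (adjusted p = 0.257 and 0.320). STP12 had an unadjusted p of 0.0652, and of 0.0359 with the replicate number as a block (adjusted p = 0.381). It was read close to the detection limit, at its lowest 0.73 log2 units above the lowest signal well above background. Another background correction reduced its difference to -0.28 (unadjusted p = 0.404, limma), and array weights reduced it to -0.24 (unadjusted p = 0.162, limma). Its unadjusted limma p was 0.0211 with quantile normalization and 0.02185 with array median scaling (adjusted p = 0.549 and 0.624). It was 0.0184 with scan date as a block and 0.0171 with the slide as a random block (adjusted p = 0.280 and 0.592). STP proteins take up hexoses, and ERD6-like proteins are vacuolar sugar carriers in Arabidopsis.

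Of 14 tested genes of hexose use, starch and trehalose, 7 had a difference above 0 and 7 below, with a median of 0.02 and none at an unadjusted p under 0.05. VIT_08s0058g01300, annotated as a high-level expression of sugar-inducible like gene, was the 1 gene of this list without overlap, at 0.65 to 0.70 in Control and 0.83 to 0.97 in OXNAC33 (adjusted p = 0.646 by limma). The study lists it from these same arrays. Groups did not overlap for 4.12% of all probes, with 2.37% in the higher direction, so 1 gene of this list does not set it apart. The alpha-amylase VIT_14s0068g00420, which breaks down starch, had a difference of -0.27, the beta-amylase VIT_05s0051g00010 of 0.60 and the trehalose phosphatase VIT_02s0012g01680 of -0.22. The beta-amylase had an unadjusted p of 0.195, which became 0.0302 with scan date as a block and 0.0463 with the replicate number as a block (adjusted p = 0.304 and 0.398, limma). Without Control replicate 3 its difference was 1.04 (unadjusted p = 0.00297, adjusted p = 0.492).

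**Figure D5:**
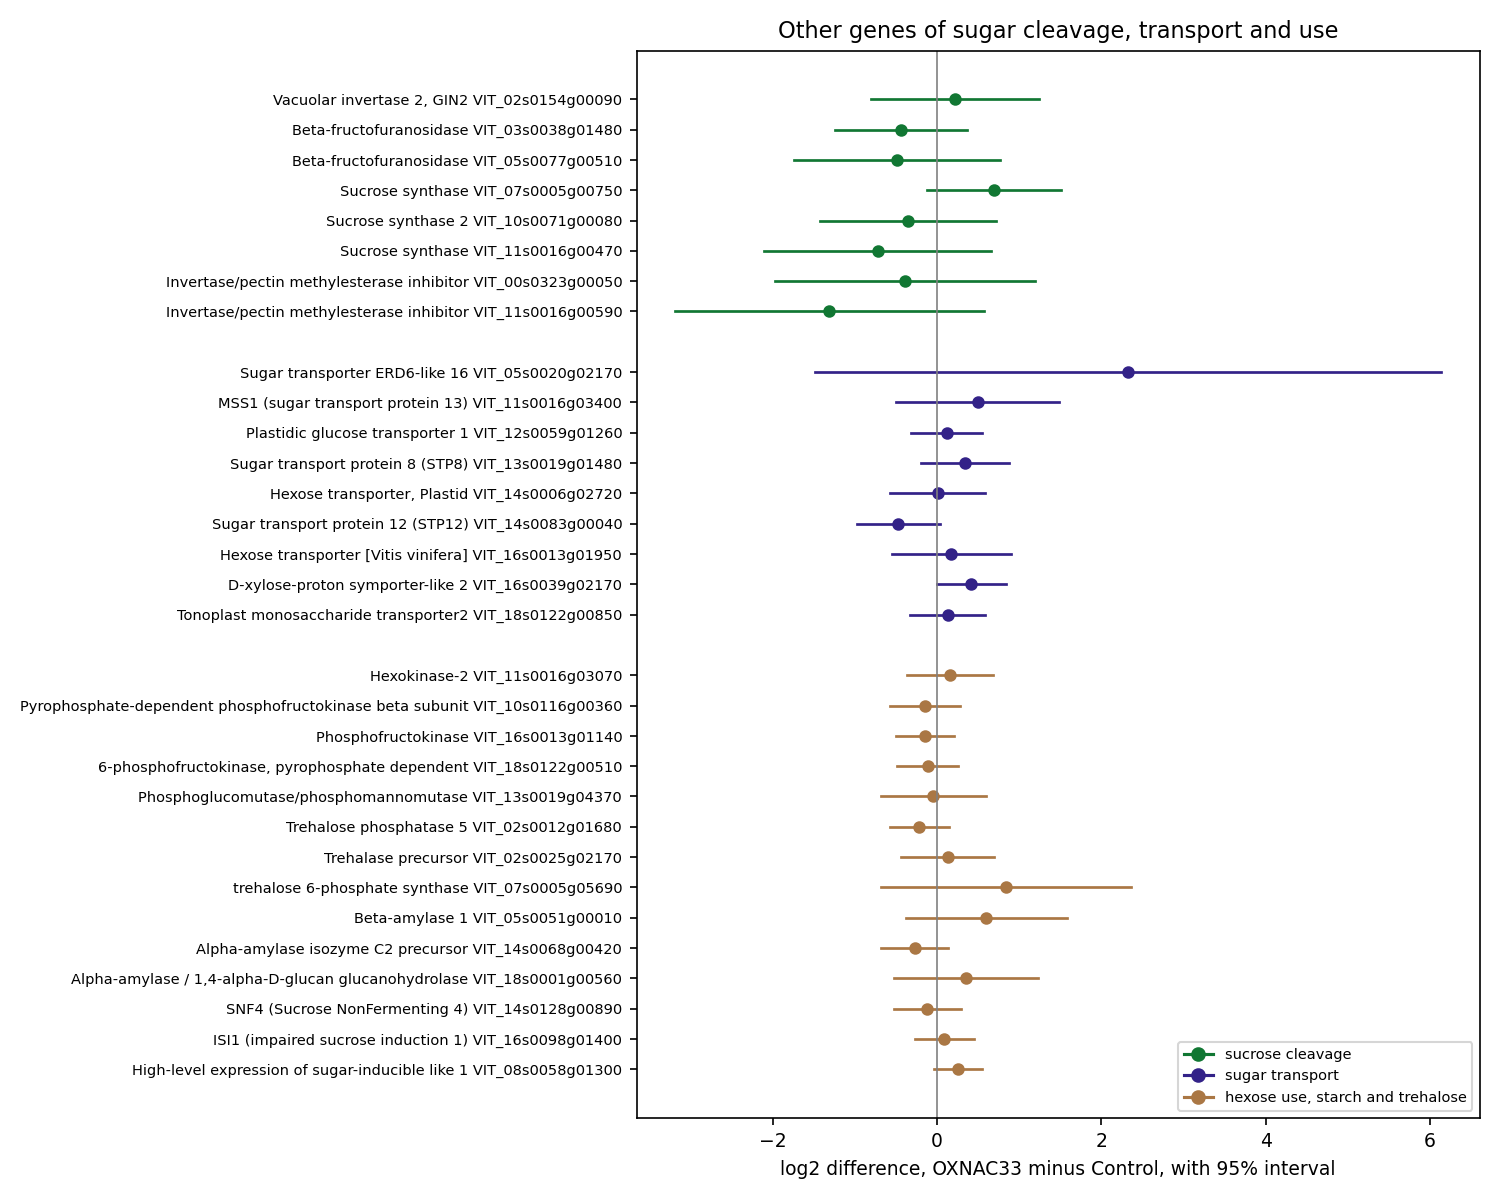
Log2 difference, OXNAC33 minus Control, with the 95% interval from limma for the 31 tested genes of sucrose cleavage (green), sugar transport (purple) and hexose use, starch and trehalose (brown). The interval of VIT_16s0039g02170 is the only one that leaves out 0.

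Likeness between genes was described by Pearson's r across the 8 arrays, among 38 candidates for each member. The arrays share scan dates and groups, so these values are a description and no p is given. GIN1 was most like the alpha-amylase VIT_14s0068g00420 (r = 0.90, and 0.82 without the 2 arrays farthest from the GIN1 median). The cell wall invertase was most like the sucrose synthase VIT_10s0071g00080 (r = 0.90, and 0.88 without 2 arrays), a probe well above background on 4 arrays that also stood lower on dates 2 and 3 than on date 1, at -1.33 and -1.17 relative to it. The sucrase (r = 0.85) and the sucrose transporter VIT_18s0001g08210 (r = 0.84) were both most like the symporter-like gene VIT_16s0039g02170. The vacuolar invertase VIT_02s0154g00110 was most like the plastidic glucose transporter VIT_12s0059g01260 (r = 0.77). The sucrose transporter VIT_18s0076g00220 was most like STP8 (r = 0.73), and the hexose transporter VIT_00s0181g00010 most like the hexose transporter VIT_16s0013g01950 (r = 0.64). For the hexose transporter VIT_05s0020g03140 the closest gene was VIT_11s0016g03400, annotated as a sugar transport protein (r = 0.69), and this fell to 0.24 without replicate 1 of both groups.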

How the data were processed

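Leaf RNA of 4 Control and 4 OXNAC33 plants was hybridised to custom grapevine arrays read with Cy3. Per the file headers, the authors extracted spots with Agilent Feature Extraction 10.5.1.1, which gave each spot a processed intensity, background-subtracted and on a linear scale, with median signal and local background intensity. The authors deposited a second table of intensity for 24631 probes, equal to the processed intensity times 1 factor per array. All 8 genes are in both.

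Values were log2 of the processed intensity minus log2 of each array's 75th percentile (1379 to 2768 before scaling). The 140 outlying spots were left out, none of them a member, and 0 spots were saturated. A probe was tested when well above background on at least 4 of 8 arrays, which left 26579 of 34369. The comparison used limma 3.58.1 (R 4.3.3), no covariate and Benjamini-Hochberg adjustment over all tested probes. Two-sided exact permutation tests (scipy 1.17.1 in Python 3.11.15) compared single genes and within-array ratios. The fit was tested on simulated data without slide or scan date effects, so that test does not cover such effects. The methods' t-test is Student's test with equal variance. Replicates are separate plants, and the number of arrays limits the precision.

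Deviations of same-numbered arrays from their group means correlated at 0.490, 0.253, 0.496 and 0.102 over 26466 probes. Same-numbered arrays also share a scan date, so these values cannot show that the plants were paired. The replicate number was used as a block in an alternative fit only. With the replicate number as a block, 2 probes passed the adjustment and 3306 passed at an unadjusted p under 0.05, in place of 0 and 2071.

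The members, lists and tests were chosen with earlier results of these data known. Genes named are the 8 members, VviNAC33, SGR1, the 4 tested genes of each list with the lowest unadjusted p, and the gene most like each member. VIT identifiers are those of the array, 0 of them matched the reference table, and genome coordinates and sequences were not used here. The alternatives tried were other background corrections, normalizations, filters, blocks, weights and tests, and leaving out each array. The background correction used median spot signals, and mean signals were not used here.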

Additional observations from a re-analysis of the deposited data

Results flagged for a closer look

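In 3 cases 1 array lay far from the other 3 of its group, with a gap to the nearest of them, as a share of the group's range, above Dixon's 95% critical value for 4 samples. Of 44 groups of 4 arrays examined, chance alone would give about 2.2, or 1 in 20. For GIN1 (VIT_16s0022g00670) the array labelled OXNAC33 replicate 4 read 1.65 against -0.99 to -0.85, a gap of 0.946 of the range. For the sucrose synthase VIT_11s0016g00470, OXNAC33 replicate 3 read 1.02 against 3.52 to 3.70, a gap of 0.934. For the beta-amylase VIT_05s0051g00010, Control replicate 3 read -0.21 against -2.09 to -1.88, a gap of 0.888. The sucrose synthase and the beta-amylase arrays both belong to scan date 2.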

How the results depend on the processing

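Under 20 alternatives, 139 of the differences of members kept their direction and their side of an adjusted p under 0.05, and 21 changed sign, all of them for differences that had passed no threshold. No member passed an adjusted p under 0.05 in any alternative, and the sucrase (0.21 to 0.36), VIT_05s0020g03140 (0.13 to 0.82) and VIT_18s0001g08210 (0.04 to 0.31) stayed above 0 in all 20. VIT_00s0181g00010 turned to -0.042 with normexp background correction, to -0.0036 with quantile normalization, to -0.0061 with array median scaling, to -0.23 with the slide as a random block and to -0.0087 with array weights. VIT_02s0154g00110 turned to -0.0044 with median scaling and to -0.19 with array weights, and the cell wall invertase VIT_09s0002g02320 to 0.55 with array weights. With the slide as a random block GIN1 (VIT_16s0022g00670) turned to 0.0057, VIT_18s0076g00220 to -0.16 and the beta-fructofuranosidase VIT_03s0038g01480 to 0.046. Array weights, which gave OXNAC33 replicate 2 a weight of 13, also brought SGR1 past the threshold (2.78, adjusted p = 0.0361, limma). The sucrose transporter ratio turned to 0.19 with normexp. The cause of these turns was not tested.

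At an unadjusted p under 0.05 the count of members rose from 0 to 1 with scan date as a block, the slide as a random block and the methods' t-test (the sucrase each time) and with array weights (GIN1). Leaving out 1 array gave 0 to 1, with 1 without Control replicate 1 (VIT_05s0020g03140) and without OXNAC33 replicate 4 (GIN1). The count of pathway genes, 1 in the main comparison, became 0 with normexp and with no filter, 2 with quantile normalization and the methods' t-test, 4 with scan date as a block and with the replicate block, and 8 with array weights. It ran from 0 (without Control replicate 1, Control replicate 2 or OXNAC33 replicate 2) to 3 (without Control replicate 3 or OXNAC33 replicate 3). Over all probes the unadjusted count of 2071 became 1246 with normexp, 4003 with scan date as a block, 3306 with the replicate block and 8309 with array weights, and ran from 1082 to 2993 with 1 array left out (1082 without OXNAC33 replicate 2 and 1092 without OXNAC33 replicate 1). The adjusted count was 2 with the replicate block, 949 with array weights and 0 to 2 with 1 array left out, the 2 being without OXNAC33 replicate 2. At an unadjusted p under 0.05 the replicate block also gained VviNAC33, and among the pathway genes named it lost VIT_16s0039g02170 and gained VIT_14s0083g00040, VIT_05s0020g02170 and VIT_05s0051g00010. It changed no call of a member. With 1 array left out, VIT_02s0154g00110 ran from -0.15 to 0.16, the cell wall invertase from -0.47 to 0.26, VIT_00s0181g00010 from -0.17 to 0.17, the hexose transporter ratio from 0.073 (without Control replicate 4) to 0.67 and the sucrose transporter ratio from -0.22 to 0.093. The random block for slide was not run for the ratios. VIT_18s0076g00220, 0.90 log2 units above the limit of detection at its lowest, is the member that signal over background limits most.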
